A study of Mus musculus with 8 samples.

Results

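Complex I of the respiratory chain is built from subunits encoded in the nucleus and in mitochondrial DNA, and 36 nuclear genes of this complex were followed in mouse quadriceps. They were taken by gene name from a fixed list of the Nduf family. All 36 had a row among the 43239 named rows of the files, none was listed at 0 FPKM in any library, and all were among the 11878 genes tested. Ndufa4, which is now counted with complex IV, was on the list and is reported apart from the modules. Each library was made from the quadriceps of 1 female mouse, 6 months old. Of the 8, 4 carry the genotype label wild type (WT), and the other 4 that of an Mss51 knockout (KO). Strain, the construction of the knockout allele and its tissue range are not given in the sources used here. The labels also give no batch. FPKM, fragments scaled to transcript length in kilobases and to M (mega) mapped fragments, were used as the authors deposited them.

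Complex I takes electrons from NADH, passes them through a flavin and a chain of iron-sulfur clusters to ubiquinone, and pumps protons across the inner mitochondrial membrane. Its matrix arm holds the N module, which oxidises NADH, and the Q module, which reduces ubiquinone. The membrane arm holds the proximal and distal P modules, which carry out proton pumping around a core encoded by mitochondrial DNA. Core subunits are shared with bacteria and do the catalysis, while accessory subunits surround and stabilise them. In skeletal muscle the complex feeds aerobic ATP production and is more abundant in oxidative than in glycolytic fibres. The 36 genes fell into 10 of the N module, 5 of the Q module, 9 of the proximal P module and 10 of the distal P module, beside Ndufab1 and Ndufa4. The placing of some members at module borders, such as Ndufa6, differs between sources.

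The target gene went against the labels. Mss51 had 22.9, 37.0, 27.5 and 24.8 FPKM in WT replicates 1 to 4 and 340, 201, 216 and 207 FPKM in KO replicates 1 to 4, a log2 fold change of 3.07 (SE 0.20, limma adjusted p = 0.000643). A higher Mss51 value does not show which part of the transcript was read, so each direction below is stated between libraries labelled KO and libraries labelled WT. No complex I member lies on chromosome 14, which carries Mss51. Depth could not be read from the low FPKM values. The stated yield was 50 M read pairs of 150 bases per library, and no counting interval is given.

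All 36 members had a higher mean FPKM, as deposited, in the KO-labelled than in the WT-labelled libraries, by small amounts, while 35 did after quantile normalization, 34 with the length trend removed and 23 after scaling to the sum of named genes. The log2 fold change, KO label minus WT label on the log2(FPKM + 0.5) scale, ran from 0.10 (Ndufa5) to 0.42 (Ndufb7) with a median of 0.24. The mean FPKM differed by 7.10% to 33.1%, with a median of 18.2%. Over all genes tested the median log2 fold change was 0.02, and 54.4% were above 0. No member passed an adjusted p of 0.05 in limma, and 0.0505% of all tested genes were called higher and 0% lower by that rule. The adjusted p of members ran from 0.262 (Ndufb3) to 0.746 (Ndufb4). An unadjusted p under 0.05 was reached by 23 members (63.9%), all higher in the KO label, against 7.5% of tested genes higher and 2.76% lower. Robust variances and array weights also called 0 members.

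In 18 of the 36 members (50%) every KO-labelled library exceeded every WT-labelled library, which held for 3.89% of all tested genes. These were Ndufs3, Ndufs4, Ndufs5, Ndufs6, Ndufs7, Ndufs8, Ndufa1, Ndufa3, Ndufa4, Ndufa6, Ndufa8, Ndufa9, Ndufb3, Ndufb5, Ndufb7, Ndufb8, Ndufb10 and Ndufc2. No member had all KO-labelled libraries below all WT-labelled ones. The share of 3.89% also stands beside the counts given below for the core subunits and for each module. A pair of libraries stood apart: WT replicate 1 was low for most members, and KO replicate 1 lacked the high fibre markers of the other KO-labelled libraries. Without WT replicate 1 the members' median log2 fold change was 0.19 and 18 did not overlap, against 5.1% of tested genes. Without KO replicate 1 these were 0.25 and 21, against 9.35%. The count also rests on the scale of the libraries. It was 6 after scaling by the median of ratios, 11 after scaling to the sum of steady genes and 0 after scaling to the sum of all named genes, where 2.83%, 1.64% and 0.101% of all tested genes did so. The last sum was filled by a single row in each of a pair of libraries, Atg7 at 921731 FPKM in KO replicate 4 (54.9% of the named sum) and Gm22953 at 469610 FPKM in WT replicate 3 (41.8%). That scaling moved the median of all tested genes from 0.02 to -0.18 and that of the members from 0.24 to 0.02. Relative to the median of all tested genes, the members' median stood 0.22 higher as deposited, 0.20 higher under that scaling, 0.22 higher under the median of ratios, 0.15 higher with the length trend removed and 0.13 higher after quantile normalization. All 36 members were above the median of all tested genes as deposited and under the median of ratios and both sums, against 35 after quantile normalization and 34 with the length trend removed.

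**Figure D1:**
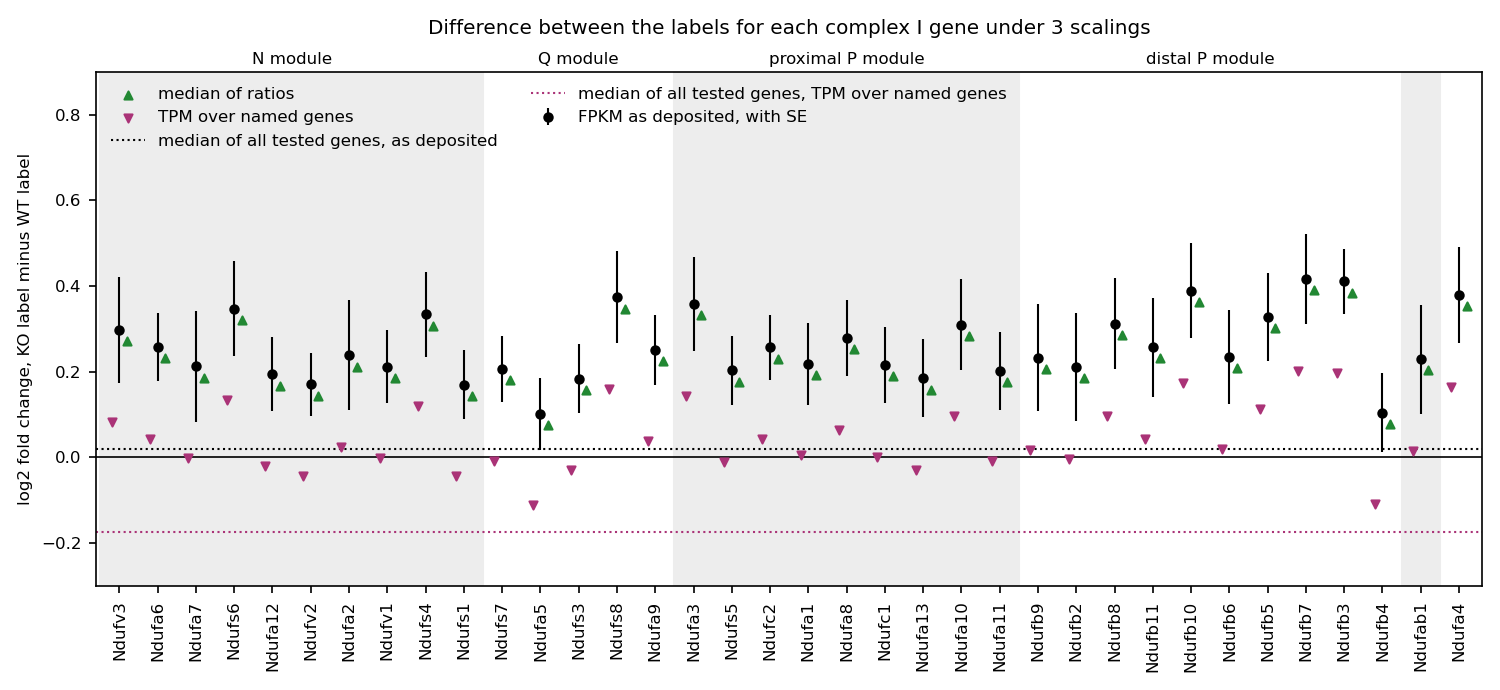
Log2 fold change, KO label minus WT label, of each of the 36 genes (x axis, grouped by module) from 4 libraries per label. Black points with SE bars are FPKM as deposited, triangles are the median-of-ratios and named-sum scalings, and dotted lines mark the median of all tested genes; every black point lies above 0, between 0.10 and 0.42, while 23 of the 36 named-sum values do.

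In whole muscle, more RNA per fibre and more fibres rich in mitochondria cannot be told apart. Slow and oxidative fibre markers were high as a sum in 3 of the 4 KO-labelled libraries. Their 13 genes summed to 3027 to 3823 FPKM in the WT label and to 3357, 8170, 7378 and 7692 FPKM in KO replicates 1 to 4, and 12 of the 13 had a higher mean in the KO label. Not all of them followed the sum, in which abundant genes weigh most. The joined row of Myh6 and Myh7 ran from 23.0 to 41.5 FPKM in the WT label and 26.4 to 36.4 in the KO label. Tnni1 had 39.9 to 78.3 and 58.8 to 73.1 FPKM, and Tnnc1 97.3 to 156 and 119 to 154 FPKM. In these rows every KO-labelled library lay within the WT range. Myoglobin (Mb), the oxygen store of oxidative fibres, had 1624, 1695, 1686 and 1937 FPKM in the WT label and 1838, 4704, 3645 and 4010 FPKM in the KO label. Myh2, the myosin of fast oxidative fibres, had 127, 96.6, 141 and 156 FPKM against 125, 494, 447 and 391 FPKM. Myh4, the myosin of fast glycolytic fibres, was listed at 0 in all 8 libraries, so the fibre make-up could not be read from it. Among 6 tested myofibre markers, 2 had a log2 fold change above 0 (median -0.14). One of the 6, Tnnt3, was listed at 0 in WT replicates 2 and 4 and KO replicates 1 and 3. In the other libraries it had 7955 to 8888 FPKM, so its fold could not be read. Pvalb had 11197, 14730, 10436 and 12361 FPKM in the WT label and 15460.5, 8288, 10120 and 7537 FPKM in the KO label. Actn3 had 2710, 3001, 2515 and 2872 FPKM against 2805, 1858, 2582 and 2163 FPKM. Myh1 had 340, 242, 328 and 361 FPKM against 303, 404, 336 and 289 FPKM. KO replicate 1 lay within the WT range for the slow and oxidative sum, for Mb and for Myh2. Its mean deviation over the complex I members was 0.19, beside 0.38, 0.29 and 0.17 in KO replicates 2 to 4. The slow and oxidative list deviated by -0.10 in KO replicate 1 and by 0.86, 0.91 and 0.94 in KO replicates 2 to 4. By list, KO replicates 1 to 4 deviated by 0.19, 0.33, 0.29 and 0.17 over the N module. Over the distal P module they deviated by 0.23, 0.41, 0.33 and 0.18. The deviations were 0.09, 0.38, 0.24 and 0.17 over the core subunits and 0.05, 0.40, 0.22 and 0.22 over complex II. Over enzymes that supply NADH they were 0.03, 0.34, 0.26 and 0.26. Markers of other cell types differed in both directions. Erythroid markers summed to 509 to 1334 FPKM in the WT label and 652 to 3172 FPKM in the KO label, with 5 of 5 tested genes above 0 (median log2 fold change 0.91). Adipocyte markers summed to 647 to 913 and 674 to 970 FPKM, but 5 of the 7 genes were lower in the KO label (median -0.30). Tendon markers summed to 75.03 to 147 and 51.8 to 131 FPKM with 0 of 5 above 0 (median -0.61), and fibroblast markers to 796 to 891 and 597 to 915 FPKM with 0 of 6 (median -0.16). Endothelial markers summed to 83.4 to 118 and 77.5 to 148 FPKM with 6 of 7 above 0 (median 0.14). No gene of these lists passed the threshold. The part of fibre type and of these cells in the complex I difference was not tested.

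Members differed in level far more than the labels did. Mean FPKM over the 8 libraries ran from 40.5 (Ndufa11) to 2887 (Ndufa4), a ratio of 71.4, and 27 of the 36 lay within 2-fold of the median of 358 FPKM. Without Ndufa4 and Ndufa11 the ratio was 11.3. The order of the members was nearly the same in every library, with Spearman rho from 0.972 to 0.997 over the 28 pairs of libraries, given as a description. Most subunits occur once in the complex as protein, while these RNA levels were not equal. Protein was not measured, so the levels do not give the stoichiometry of the complex. Ndufab1, which occurs in 2 copies, ranked 33 of 36 by level, with a mean of 168 FPKM. FPKM also rests on the transcript length used, and the annotated transcripts of Ndufab1 run from 1416 to 3479 bases. Within a label the spread was small, with a median coefficient of variation of 9.22% over the WT-labelled and 8.23% over the KO-labelled libraries.

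**Figure D2:**
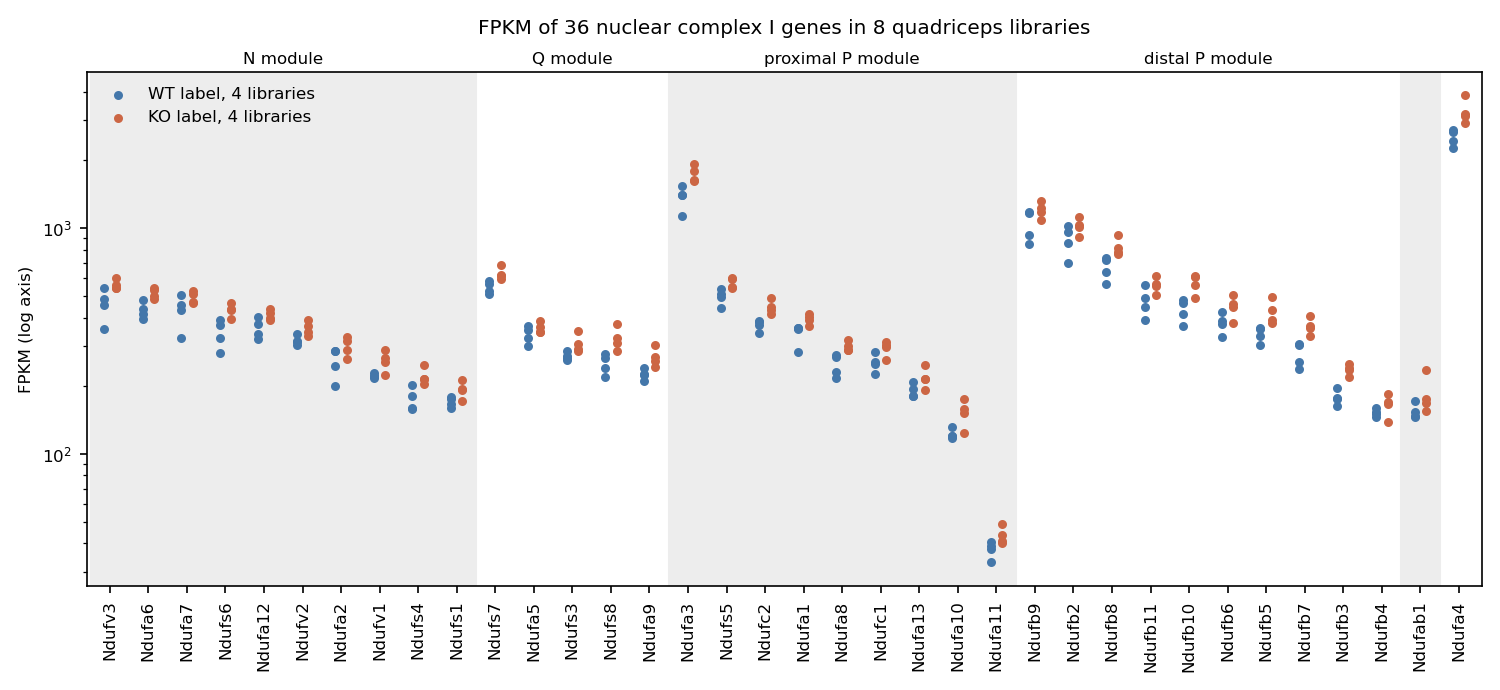
FPKM of the 36 genes on a log axis, 1 point per library, WT label in blue and KO label in orange, ordered by mean level within each module. The members span 40.5 to 2887 FPKM in mean level, and the shift between labels within a gene is small beside that span.

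The 6 core subunits on the list all belong to the matrix arm. Their log2 fold changes ran from 0.17 to 0.37 with a median of 0.20, beside 0.24 over all 36 members, and 3 of the 6 had groups that did not overlap. Ndufv1 (chr19:4007384-4012806, minus strand, GRCm38, the assembly also named mm10) binds the flavin and NADH. It had 219, 216, 220 and 228 FPKM in WT replicates 1 to 4 and 222, 288, 264 and 254 FPKM in KO replicates 1 to 4 (log2 fold change 0.21, SE 0.08, adjusted p = 0.443). The WT-labelled values lay close together, KO replicate 1 fell among them, and the other KO-labelled libraries were above all. Ndufv2, its partner with an iron-sulfur cluster, had 316, 337, 304 and 313 FPKM against 345, 389, 366 and 332 FPKM (log2 fold change 0.17). Only KO replicate 4 overlapped the WT range. Ndufs1 (chr1:63143596-63176833, minus strand), the largest subunit of the matrix arm and a carrier of several iron-sulfur clusters, had 178.8, 166.0, 158.6 and 175.2 FPKM against 170.1, 211.4, 193.2 and 190.2 FPKM (log2 fold change 0.17). KO replicate 1 was again inside the WT range.

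All 3 core members of the Q module had groups that did not overlap. Ndufs3, which carries no cluster and helps to form the quinone arm, had 260, 284, 272 and 264 FPKM in the WT label and 285, 350, 306 and 290 FPKM in the KO label (log2 fold change 0.18). The groups were separated by a narrow margin, between WT replicate 2 and KO replicate 1. A processed pseudogene, Gm12251, shares 98.6% of the aligned bases with Ndufs3 and was listed at 5.19 FPKM (WT mean) and 5.89 FPKM (KO mean), so a small share of reads could be placed on either. Ndufs7, which holds the last cluster before ubiquinone, had 509, 579, 525 and 561 FPKM against 592, 685, 619 and 612 FPKM (log2 fold change 0.21) and was the most abundant member of the Q module. Ndufs8 (chr19:3908863-3912774, minus strand), which binds a pair of iron-sulfur clusters, had the highest log2 fold change of the core. It had 217, 275, 239 and 264 FPKM against 285, 375, 325 and 308 FPKM, a log2 fold change of 0.37 (SE 0.11, adjusted p = 0.347). Its groups did not overlap.

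Among the accessory members of the N module, Ndufs4 (chr13:114287795-114388258, minus strand) had the smallest p. Loss of this subunit destabilises the N module and is a known cause of Leigh syndrome. It had 158.9, 200.7, 157.5 and 180.6 FPKM in the WT label and 213.1, 247.4, 213.7 and 203.5 FPKM in the KO label (log2 fold change 0.33, SE 0.10, adjusted p = 0.353). Every KO-labelled library was above every WT-labelled one, with KO replicate 4 and WT replicate 2 nearly level. Ndufa6, a LYR-motif protein that anchors an acyl carrier protein, had 394, 435, 415 and 477 FPKM against 484, 540, 531 and 500 FPKM (log2 fold change 0.26). Ndufv3 had the highest mean of the module, with 357, 541, 454 and 486 FPKM against 539, 599, 559 and 539 FPKM (log2 fold change 0.30). WT replicate 1 stood far below the other WT-labelled libraries for Ndufv3, and WT replicate 2 reached the KO range. Of the other 4 accessory members, Ndufs6, a zinc-binding subunit, had groups that did not overlap (log2 fold change 0.35). Ndufa2, Ndufa7 and Ndufa12 had overlapping groups and log2 fold changes of 0.24, 0.21 and 0.19. Over the whole N module the median was 0.23, and 3 of 10 had groups that did not overlap.

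The Q module has 2 accessory members on the list. Ndufa9, a relative of short-chain dehydrogenases that binds a nucleotide near the quinone site, had the lowest mean of the module. Its FPKM was 224, 239, 210 and 223 in the WT label and 242, 301, 267 and 258 in the KO label (log2 fold change 0.25, SE 0.08), with no overlap. Ndufa5 had 298, 354, 325 and 369 FPKM against 345, 387, 362 and 347 FPKM and the smallest log2 fold change of all members, 0.10 (SE 0.08, adjusted p = 0.727). Its WT replicate 4 exceeded 3 of the 4 KO-labelled libraries. Over the Q module the median was 0.21, and 4 of 5 had groups that did not overlap.

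In the proximal P module, Ndufc2 (chr7:97400003-97407802, plus strand), an accessory membrane subunit, had the smallest p. It had 343, 388, 372 and 384 FPKM in the WT label and 444, 487, 434 and 413 FPKM in the KO label (log2 fold change 0.26, SE 0.08, adjusted p = 0.353). Ndufa3 (chr7:3617373-3620327, plus strand), a small membrane subunit, was the most abundant gene of the module. It had 1130, 1395, 1390 and 1526 FPKM against 1632, 1785, 1917 and 1618 FPKM (log2 fold change 0.36, SE 0.11). Both genes had groups that did not overlap. Ndufa11, a membrane subunit related to the Tim17 import family, was the least abundant of all members, with 32.9, 40.4, 39.1 and 37.9 FPKM against 40.9, 48.9, 43.5 and 40.0 FPKM (log2 fold change 0.20). KO replicate 4 fell just below WT replicate 2. Ndufa8 and Ndufs5, which carry paired cysteine motifs on the intermembrane side, had log2 fold changes of 0.28 and 0.20, and Ndufa1 had 0.22, each with no overlap. Ndufa10, a relative of nucleoside kinases, had 0.31, Ndufc1 0.22 and Ndufa13, also known as GRIM-19, 0.18, each with overlap. The module's median was 0.22, with 5 of 9 members not overlapping. Reads of Ndufs5 can also match the pseudogene BC002163, at 99.4% identity, which was listed at 0 FPKM in each WT-labelled library and at most at 1.61 FPKM in any library.

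The distal P module held both members with the largest folds. Ndufb3 (chr1:58586384-58595964, plus strand), a small membrane subunit, had 162, 177, 174 and 195 FPKM in the WT label and 218, 248, 235 and 239 FPKM in the KO label. The means were 177 ± 13.3 and 235 ± 12.4 FPKM (SD, n = 4), and the lowest KO-labelled library, replicate 1 at 218, lay above the highest WT-labelled one, replicate 4 at 195. Its log2 fold change was 0.41 (SE 0.08), with an unadjusted limma p of 0.000441 and an adjusted p of 0.262. Ndufb7 (chr8:83566671-83571626, plus strand), which carries paired cysteine motifs on the intermembrane side, had 237, 303, 254 and 305 FPKM against 331, 405, 366 and 360 FPKM (log2 fold change 0.42, SE 0.10, adjusted p = 0.347). Neither gene's groups overlapped. Without KO replicate 1, Ndufb3 was called, with a log2 fold change of 0.45 and an adjusted p of 0.0445. In that fit 125 genes were called against 6 with all libraries, and Ndufb3 was the only one of the 36 members among them.

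Ndufb9, a LYR-motif protein like Ndufa6, had the highest mean of the distal P module, with 844, 1163, 927 and 1172 FPKM in the WT label and 1171, 1312, 1219 and 1084 FPKM in the KO label (log2 fold change 0.23, SE 0.12). Its WT values fell into a low pair, replicates 1 and 3, and a high pair that reached the KO range. Ndufb4 had the lowest mean of the module, with 145, 160, 150 and 153 FPKM against 184, 166, 170 and 138 FPKM (log2 fold change 0.10, SE 0.09, adjusted p = 0.746). It was the only member with its lowest value in a KO-labelled library, KO replicate 4. For Ndufb2 and Ndufb8 the files give 1 row joined with other genes at the locus, so their values can include reads of Adck2 and of Gm20538 and Sec31b. The Ndufb2 row had 697, 960, 854 and 1018 FPKM against 1007, 1112, 1026 and 911 FPKM (log2 fold change 0.21). The Ndufb8 row had 566, 735, 638 and 722 FPKM against 765, 932, 817 and 783 FPKM (log2 fold change 0.31), with no overlap. Ndufb10 and Ndufb5 had log2 fold changes of 0.39 and 0.33 with no overlap, and Ndufb11 and Ndufb6 had 0.26 and 0.23 with overlap. The module's median was 0.28, and 5 of 10 members did not overlap. Ndufb11 shares 96.9% of aligned bases with the pseudogene Gm6444, listed at no more than 0.637 FPKM, and Ndufs6 of the N module 96.6% with Ndufs6b, for which no row was used here.

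Ndufab1, the mitochondrial acyl carrier protein, also serves mitochondrial fatty acid synthesis and iron-sulfur cluster assembly. It had 153.2, 146.0, 170.6 and 145.1 FPKM in the WT label and 153.6, 233.4, 174.1 and 167.9 FPKM in the KO label (log2 fold change 0.23, SE 0.13, adjusted p = 0.58). KO replicate 2 stood apart, and the other 3 KO-labelled libraries lay within or just above the WT range. Ndufa4 (chr6:11900292-11907497, minus strand), first described as a complex I subunit, was the most abundant member in each library. It had 2250, 2704, 2413 and 2656 FPKM against 2924, 3857, 3177 and 3118 FPKM (log2 fold change 0.38, SE 0.11, adjusted p = 0.353), with no overlap. Its fold was close to the median of the 10 nuclear complex IV genes, 0.37, and above the 0.23 of the other 35 members, and neither difference was tested.

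The modules kept nearly constant shares of the summed FPKM of the 36 genes. The sum was 15647 ± 1537 FPKM in the WT label and 19005 ± 1395 FPKM in the KO label (SD, n = 4). The N module took 20.2% ± 0.33 of it in the WT label and 19.6% ± 0.56 in the KO label, and the Q module 10.4% ± 0.47 and 9.92% ± 0.24. The proximal P module took 21.8% ± 0.60 and 21.8% ± 0.67, and the distal P module 30.6% ± 0.98 and 30.5% ± 0.40. Ndufa4 alone took 16.0% ± 0.34 and 17.2% ± 1.06. The P modules' shares differed between labels by less than the SD of the libraries. The shares of the N module, the Q module and Ndufa4 differed by more than the SD of the WT-labelled libraries, and no share was tested. With each library set relative to the mean of its own members, the log2 differences between labels ran from -0.16 (Ndufa5) to 0.16 (Ndufb7). No member passed the threshold on that scale, with the lowest adjusted p of 0.183 at Ndufa5. On it Ndufa4, Ndufb3 and Ndufb7 were higher in every KO-labelled library than in every WT-labelled one, as were 0.303% of all tested genes. Ndufa5 was the 1 member lower in every KO-labelled library on that scale. No share of all tested genes is given for that direction.

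The members followed each other from library to library. WT replicate 1 held the lowest value of 29 members and KO replicate 2 the highest of 28. KO replicates 1, 2, 3 and 4 exceeded all WT-labelled libraries for 27, 34, 35 and 21 members. KO replicate 1 lay within the WT range for 9 members, Ndufs1, Ndufv1, Ndufv3, Ndufa5, Ndufa7, Ndufa10, Ndufab1, Ndufb2 and Ndufb9. The mean deviation of all 36 members from the WT mean was -0.16, 0.10, -0.03 and 0.10 in WT replicates 1 to 4 and 0.19, 0.38, 0.29 and 0.17 in KO replicates 1 to 4. Leaving out WT replicate 4 gave the highest median log2 fold change of the members, 0.29.

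**Figure D3:**
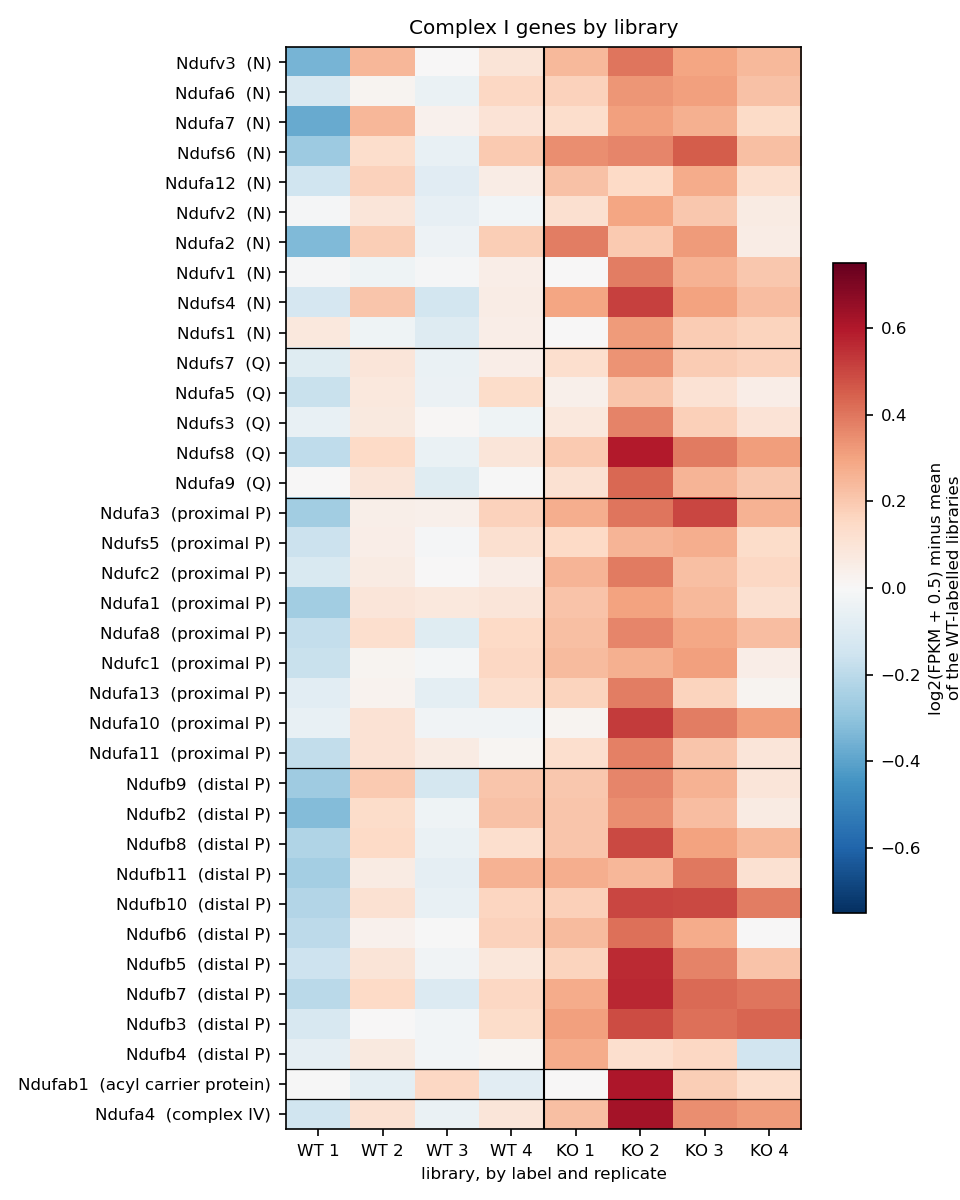
Each row is 1 of the 36 genes, ordered by module, and each column 1 library; colour gives log2(FPKM + 0.5) minus the mean of the 4 WT-labelled libraries of that gene. WT replicate 1 is the bluest column, with the lowest value of 29 members, and KO replicate 2 the reddest, with the highest of 28.

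The low values of WT replicate 1 went with short transcripts. Lengths are medians over the transcripts of each gene in the annotation, from 382 to 2625 bases. Among the 25 members under 1000 bases, WT replicate 1 lay below the mean of the other 3 WT-labelled libraries by a median log2 difference of -0.24 (range -0.51 to -0.09). Among the 11 longer members the median was -0.07, from -0.43 at Ndufb2, whose transcripts differ widely in length, to 0.10 at Ndufs1. Over the 36 members the Spearman rho of this difference with length was 0.53, and over all tested genes it was 0.26, both as descriptions within the same libraries. KO replicate 1 showed the opposite order, with a median of -0.07 for short and -0.14 for longer members against the other KO-labelled libraries and a rho of -0.25. Cytosolic ribosomal protein genes, which are short and abundant but not mitochondrial, were also low in WT replicate 1, with a mean deviation of -0.24, and 49 of 51 had a higher mean in the KO label (median log2 fold change 0.12). Among all 303 tested genes of at least 100 FPKM and under 1000 bases, 85.5% had a log2 fold change above 0, the median was 0.17, and 15.2% had KO-labelled libraries all above WT-labelled ones. The 24 members in that set had a median of 0.26, and 14 of them (58.3%) did not overlap. After the trend with length was removed from each library, the members' median log2 fold change was 0.14 and that of all genes -0.01, 34 of 36 members were above 0, and 6 did not overlap, against 2.4% of all tested genes.

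**Figure D4:**
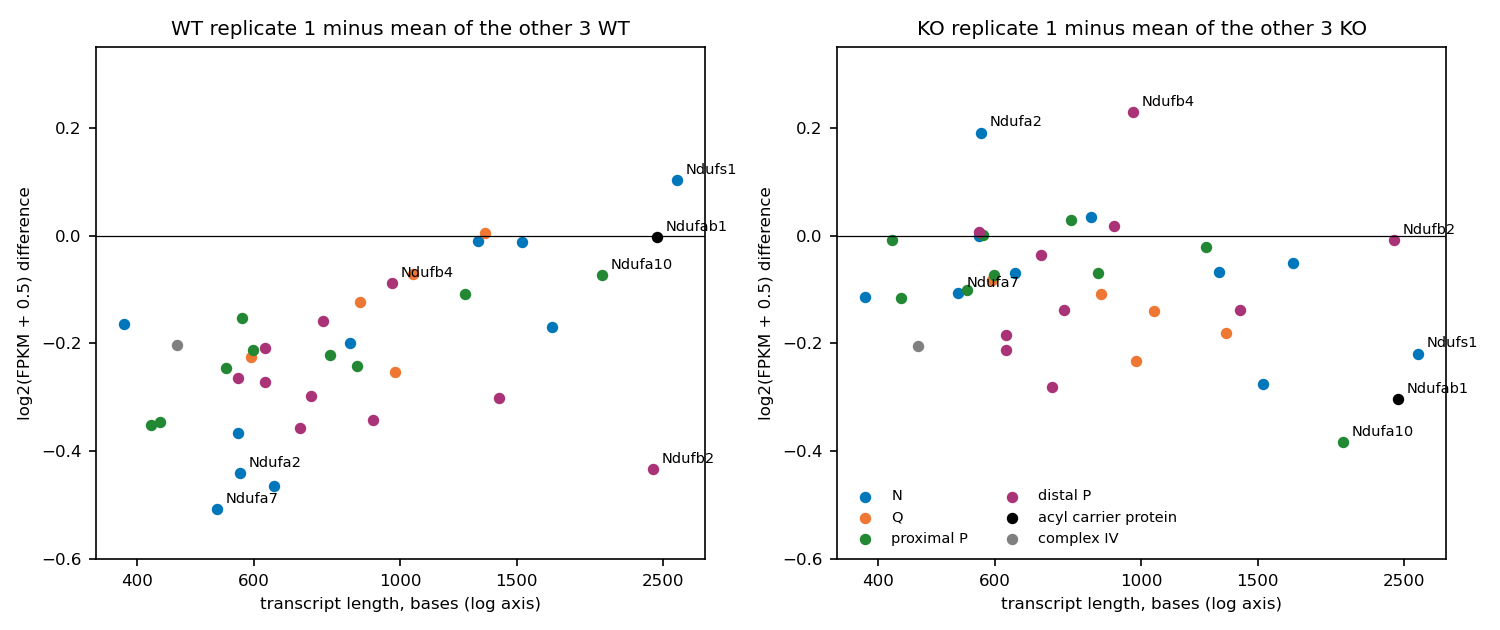
Left, log2(FPKM + 0.5) in WT replicate 1 minus the mean of the other 3 WT-labelled libraries, against transcript length in bases on a log axis; right, the same for KO replicate 1; each point is 1 of the 36 genes, coloured by module. Shorter members lie lower on the left (median -0.24 under 1000 bases, -0.07 at or above) and not on the right (medians -0.07 and -0.14).

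Most genes of related lists also had higher means in the KO label in FPKM as deposited, the only scale on which these lists are given, and none in them passed the threshold. The complex I genes of mitochondrial DNA had 5 tested rows, all above 0, with a median log2 fold change of 0.15. Of these mt-Nd1 was at 28723 ± 1218 FPKM in the WT label and 33726 ± 2402 FPKM in the KO label, and the row of mt-Nd4 and mt-Nd4l was listed at 0 in all 8 libraries. Complex I assembly factors had 13 of 14 above 0 and a median of 0.17, with no gene free of overlap, and Ndufaf1 (0.24) and Ndufaf7 (0.26) had the smallest p. The nuclear genes of the other complexes were above 0 in each case. Complex II had 4 of 4 with a median of 0.20, complex III with cytochrome c 10 of 10 with 0.28, complex IV 10 of 10 with 0.37 and ATP synthase 15 of 15 with 0.26. Without overlap were 1, 4, 7 and 6 of them, against 3.89% of all tested genes. That share was 15.2% among tested genes of at least 100 FPKM and under 1000 bases. Enzymes that supply NADH, such as Pdha1 of pyruvate dehydrogenase (0.30) and Hadh of fatty acid oxidation (0.40), had 13 of 13 above 0 and a median of 0.22. Among 9 regulators of respiratory genes, 6 were above 0 with a median of 0.05. Esrra, a nuclear receptor that acts on many respiratory genes, was at 51.8, 53.9, 56.6 and 56.2 FPKM in the WT label and 58.6, 65.9, 65.1 and 64.1 FPKM in the KO label (log2 fold change 0.21, adjusted p = 0.353). Esrrb had 3.91, 2.13, 2.48 and 2.07 FPKM against 2.07, 7.18, 6.79 and 6.77 FPKM (log2 fold change 0.89). The log2 fold change was 0.62 for Esrrg, 0.05 for Gabpa, -0.0052 for Ppargc1a, -0.06 for Yy1 and -0.07 for Nrf1.

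**Figure D5:**
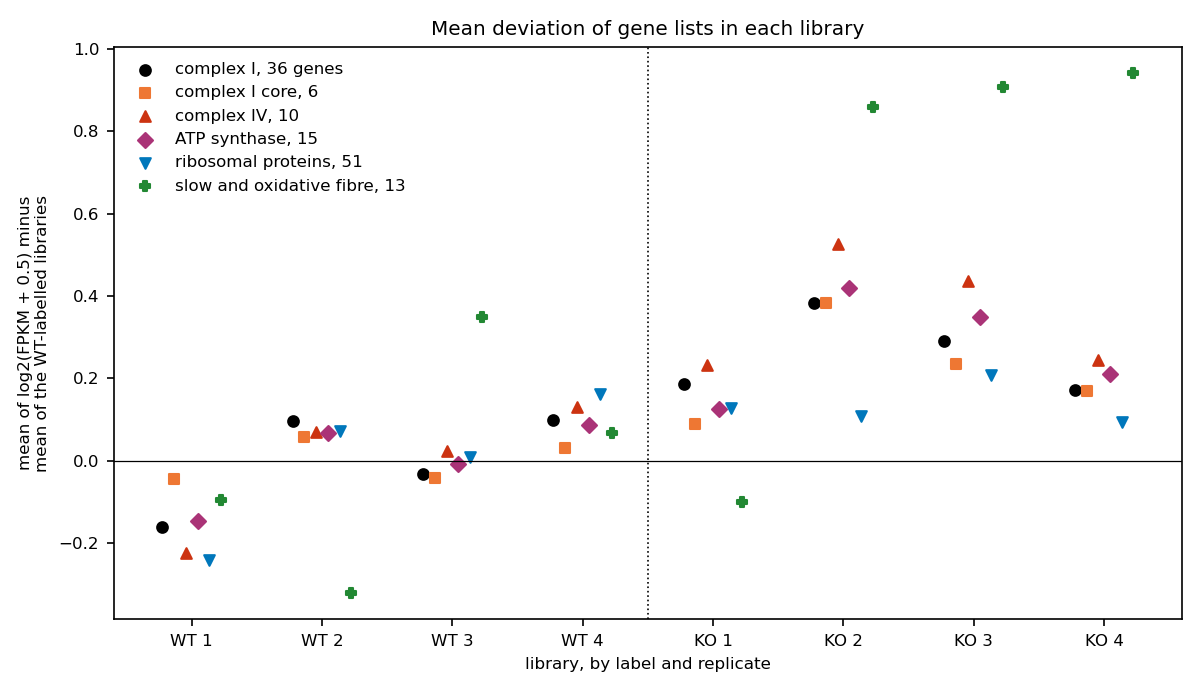
Mean of log2(FPKM + 0.5) minus the WT-labelled mean, over the genes of each list, in each of the 8 libraries. Complex I deviates by 0.17 to 0.38 in the KO-labelled libraries, while slow and oxidative fibre markers deviate by -0.10 in KO replicate 1 and 0.86 to 0.94 in the other 3, and ribosomal proteins by 0.09 to 0.21.

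The promoters of 33 members were found in the RefSeq table of GRCm38.p6, and the 250 bases before each start were searched on both strands for the letters of factors known for respiratory genes. The NRF1 letters, GCGCA and GCGC with 1 base of any kind between them, were in 6 of the 33 (18.2%), in Ndufs5, Ndufs6, Ndufa5, Ndufa8, Ndufa11 and Ndufb4, against 9.37% of promoters of tested genes and 4.23% of all promoters. The estrogen-related receptor letters AAGGTCA were in 3 (9.09%), Ndufs5, Ndufb2 and Ndufb4, against 3.49% and 4.70%. The ETS letters CCGGAAG were in 3 (9.09%), Ndufs3, Ndufb6 and Ndufb7, against 15.6% and 7.83%, and the YY1 letters AAGATGG in 0 against 5.33% and 5.18%. GGGCGG was in 14 (42.4%) against 63.8% and 35.4%, and CCAAT in 10 (30.3%) against 40.2% and 37.5%. A match is a run of letters and no measured binding. The next lines show the 3 members whose NRF1 letters lie outside annotated exons, read 5′ to 3′ on the strand of the gene with the match in capitals.
Ndufs5, chr4:123718250-123718309, minus strand: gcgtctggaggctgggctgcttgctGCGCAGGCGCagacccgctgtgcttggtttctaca
Ndufa11, chr17:56717681-56717736, plus strand: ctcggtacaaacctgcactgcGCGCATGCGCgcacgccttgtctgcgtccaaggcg
Ndufb4, chr16:37654525-37654584, minus strand: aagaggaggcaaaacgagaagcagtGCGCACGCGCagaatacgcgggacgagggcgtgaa
The matches start 98, 60 and 191 bases before the start sites. These 3 genes had log2 fold changes of 0.20, 0.20 and 0.10, and only Ndufs5 had groups that did not overlap. Of the 2 members with the largest folds, Ndufb7 held the ETS letters, and Ndufb3 held none of the NRF1, ETS or estrogen-related receptor letters in this window.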

How the data were processed

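Quadriceps RNA from 8 mice was enriched on oligo(dT) beads, depleted of ribosomal RNA and read in pairs, per the labels' protocols. The authors deposited FPKM per gene for each library, per the file headers. The submitters' processing notes list Cufflinks 2.2.1, Bowtie2 2.2.6, TopHat2 2.1.1, FastQC and the build mm10. The annotation, filters and strand setting are not given in the sources used here, so values are uncertain where genes on both strands overlap. Each library has 46036 entries, of which 2379 without a gene name were left out, though they hold 65.8% to 93.2% of the summed FPKM. Where a name was repeated, the row with the highest mean was used.

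Named genes averaging at least 1 FPKM were tested with limma 3.58.1 in R 4.3.3 on log2(FPKM + 0.5), as KO label minus WT label, with no further scaling. The model held genotype alone, with moderated variances and a mean trend, two-sided, and Benjamini-Hochberg adjustment over 11878 genes at 0.05. The script was tested on simulated data. Groups do not overlap where every value of 1 group exceeds every value of the other. Genes were placed with GENCODE M21 on GRCm38, which also gave transcript lengths. The members, modules and gene lists were chosen with earlier results of these data known. Described by library were core subunits, Ndufab1, Ndufa4, the 2 smallest p and the highest and lowest mean in each module, members called under any setting, and members in joined rows. Of other genes, Mss51 and the 2 smallest p of each pathway list could be named. Mb, Myh2, Myh4, Myh1, Myh6, Myh7, Tnni1, Tnnc1, Tnnt3, Pvalb, Actn3, Atg7, Gm22953 and the pseudogenes were named after their values were seen. So were Esrrg, Ppargc1a, Nrf1, Gabpa and Yy1. Alternatives covered pseudocounts, filters, scalings, variance models, repeated rows, the replicate number as a block, the length trend and each library left out. The scaling over steady genes, which leaves out 3921 rows whose highest library exceeds 20 times the median, was added after the data were seen.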

Additional observations from a re-analysis of the deposited data

Results flagged for a closer look

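In WT replicate 1, Ndufa1 was at 282 FPKM while the other 3 WT-labelled libraries were at 358 to 360 FPKM. The gap was large beside the range of the 4 libraries by Dixon's criterion. This was the single such case among 72 groups tested, 36 genes in each of the 2 labels, where chance gives about 1 in 20. WT replicate 1 also held the lowest value of 29 of the 36 members, and the part of transcript length in this was not tested for single genes.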

How the results depend on the processing

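Of 828 member results under 23 alternatives, 811 kept their direction and side of the threshold, 16 reversed and 1, Ndufb3 without KO replicate 1 (0.45, adjusted p = 0.0445), passed it. The count of called genes, 6 in the reported fit, was 120 after scaling to the sum of named genes (63 higher, 57 lower), 0 with the replicate block, and 4 to 125 with 1 library left out. The count of called members was 0 to 1 with 1 library left out, with 1 only without KO replicate 1. The members without overlap, 18 as reported, were 0 after scaling to the named sum, 6 by the median of ratios, 4 by quantile normalization (2.53% of all tested genes), 6 with the length trend removed and 11 by the sum of steady genes. The median log2 fold change of the members, 0.24, was 0.022 under the named sum, 0.11 under quantile normalization and 0.19 to 0.29 with 1 library left out.

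Under the named sum the Q module's median was -0.00844, and 13 members turned: Ndufs1 -0.0446, Ndufs3 -0.0303, Ndufs5 -0.0115, Ndufs7 -0.00844, Ndufv1 -0.00229, Ndufv2 -0.0436, Ndufa5 -0.112, Ndufa7 -0.0021, Ndufa11 -0.00876, Ndufa12 -0.0205, Ndufa13 -0.0294, Ndufb2 -0.00332 and Ndufb4 -0.109. Ndufa5 was at -0.033 under quantile normalization and -0.0445 with the length trend removed, where Ndufb4 was at -0.00934. The cause was not tested, beyond the rows of Atg7 and Gm22953 that fill the named sum in KO replicate 4 and WT replicate 3. Libraries with the same replicate number did not deviate together, with correlations of -0.0105, -0.0775, -0.0809 and 0.00933 over all tested genes. Libraries with different numbers had correlations from -0.156 to 0.133. These values show no pairing by number but cannot exclude one with a small effect. The block changed no member's direction or call. Depth was not recovered from FPKM, so counting error is unknown.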
